A study of Homo sapiens and Mus musculus with 21 samples.

Results

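The genes described here are 54 developmental transcription factors and cofactors outside the HOX clusters, taken by their symbol from the 60674 genes of the human count tables. Their mouse orthologs, matched by title-case symbol, were all present among the 41214 genes of the mouse table. They comprise 4 GATA factors, 7 T-box factors, 5 SOX factors, the paired box genes PAX2, PAX6, PAX8 and PAX9 with SIX2, SIX4, EYA1 and EYA4, 7 forkhead factors, 3 LIM homeobox factors, 6 MEIS and IRX factors, 6 MSX, DLX and EN factors, the paired-like factors PITX1 and PRRX1, and a group of HAND1, HAND2, TCF21, OSR1, OSR2 and RUNX2. A gene was called expressed in a group when its mean was at least 0.5 CPM (gene counts scaled to library size), and silent below that.

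These genes are switched on in restricted regions of the embryo, where they set the fate of limb, heart, gonad, kidney, skull and neural tissue. In other tissues many of them are kept off by Polycomb complexes, of which EZH2 is the histone methyltransferase that lays down the repressive mark and BAP1 is a deubiquitinase that removes ubiquitin from a histone in the same chromatin. GATA4, GATA6, TBX18, TCF21 and OSR1 are known from the embryonic linings of the body cavities and the heart, and the mesothelium derives from that mesoderm.

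RNA was sequenced from 21 libraries of pleural mesothelioma cells, a tumour of the mesothelial lining. The mouse libraries were 3 BNC libraries, lacking Bap1, Nf2 and Cdkn2ab, and 2 NC libraries, lacking Nf2 and Cdkn2ab, so that the loss of Nf2 and Cdkn2ab was common to both. Human libraries, 2 for each group, came from H2731 (BAP1 mutated) and H2810 (BAP1 wildtype) cells given GSK126, an EZH2 inhibitor, or DMSO, and from MSTO-211H and H2810 cells carrying a BAP1 hairpin (shBAP1) or a random hairpin. Each human condition was studied in 1 established line at a time, so a difference between lines includes everything else in which the lines differ. The labels name no separate cultures, animals, doses or treatment times, and p-values measure only the spread between these libraries, which may be technical.

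Libraries held 13693927 to 22916482 counts in the mouse table, 17927837 to 22927239 in the drug table and 19707304 to 23217215 in the hairpin table. BAP1 read 13.4 and 20.3 CPM in H2810 shBAP1 cells against 115 and 117 CPM with the random hairpin, and 15.4 and 17.7 CPM in MSTO-211H shBAP1 cells against 100 and 103 CPM. Mouse Bap1 read 30.5, 33.2 and 44 CPM in BNC libraries against 60.1 and 61.8 CPM in NC libraries. Counts per gene do not show which exons the reads came from, so they do not check the label. Of 15 mesothelial markers 9 were expressed in each human group, with KRT8 and KRT18 among the leading ones and UPK1B at or near 0. Of 8 leukocyte markers 1 to 3 were expressed in each human group, with summed levels of 1.35 to 4.91 CPM, and 7 endothelial markers summed to 1.21 to 19.9 CPM. The summed CPM of 9 fibroblast markers was 302 to 408 in H2731, 1030 to 1270 in MSTO-211H and 7620 to 10800 in H2810. The fibroblast sums moved with the line, and their part in the results below was not tested. In bulk libraries fewer expressing cells and less RNA per cell cannot be told apart.

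In the human lines 31 of the 54 genes were expressed in all 8 groups, and 4 were silent in all 8. The always silent genes were TBX4, a hindlimb factor, PAX2, a kidney factor, HAND1 of the heart and placenta, and TCF21 of the epicardium and of fibroblasts. Their mouse orthologs were silent in both mouse groups too, and 26 genes were expressed in all 10 groups. The remaining 19 genes were on in some human groups and off in others. The number expressed was 37 in BNC, 36 in NC, 40 in H2810 shBAP1, 42 in H2810 with the random hairpin, 37 in MSTO-211H shBAP1 and 39 in MSTO-211H with the random hairpin. In the drug table it was 43 in H2810 with GSK126, 42 in H2810 with DMSO, and 44 in H2731 under either treatment. Just below the threshold stood TBX15, with a mean of 0.495 CPM in H2731 with DMSO, and PAX2, with 0.311 and 0.659 CPM (mean 0.485) in H2810 with GSK126.

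**Figure D1:**
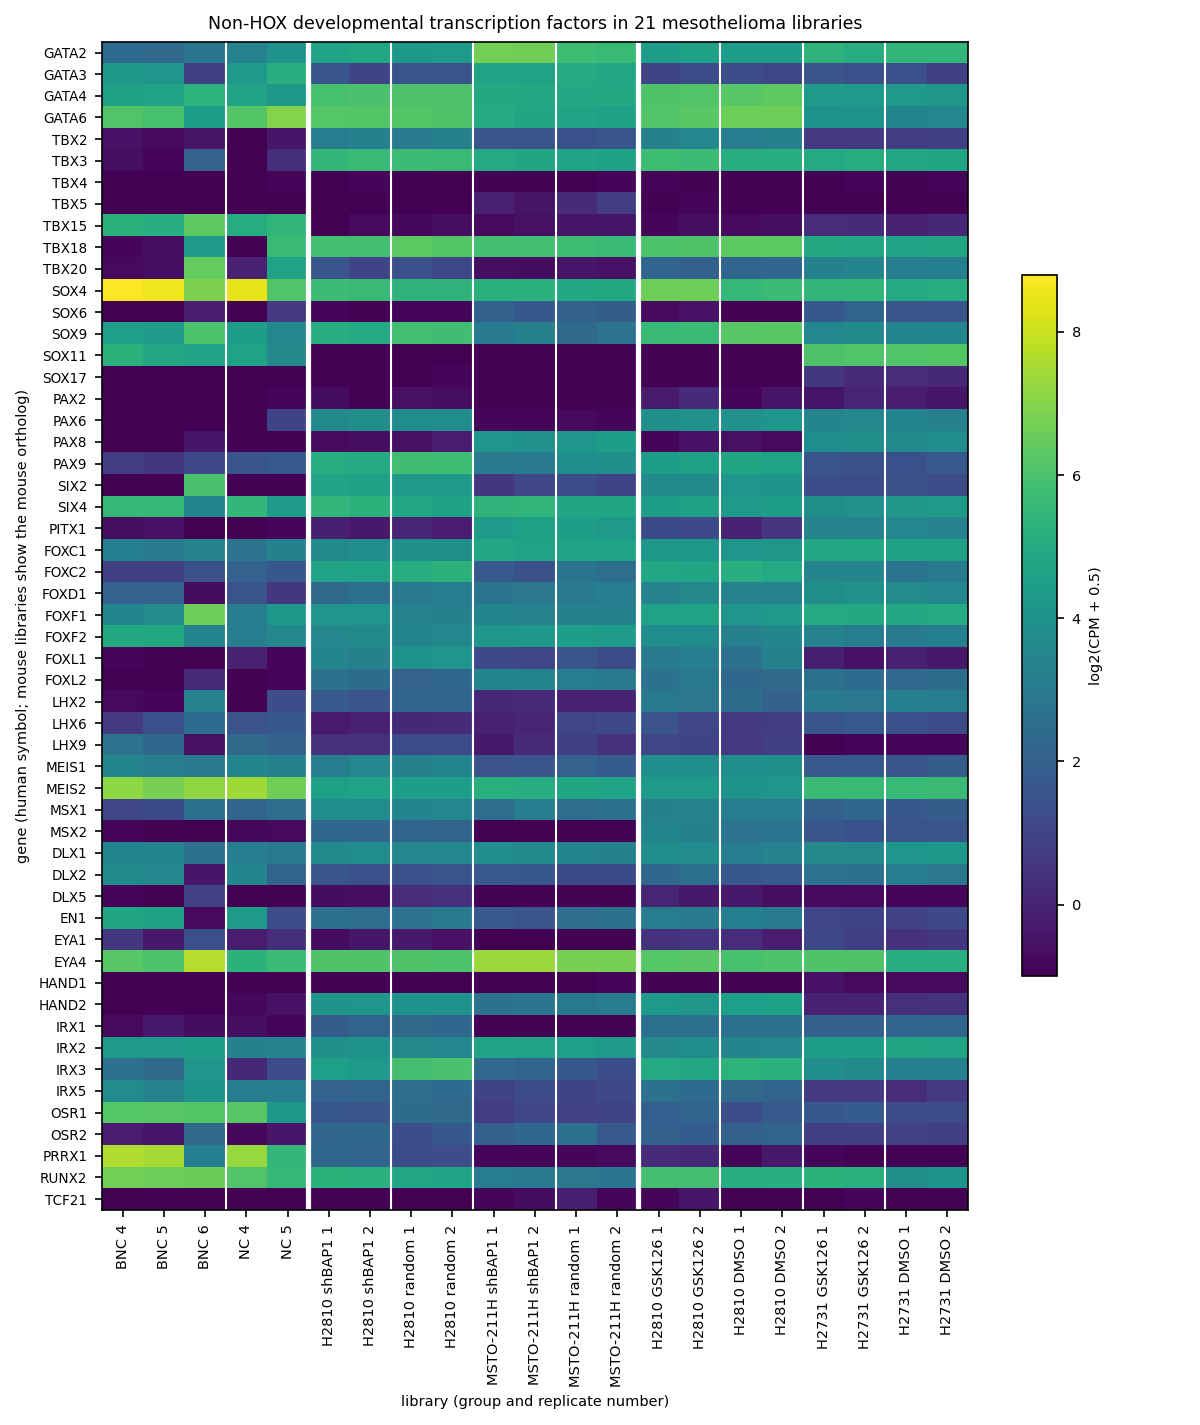
Level of each of the 54 genes (down) in each of the 21 libraries (across), as log2(CPM + 0.5), with thin white lines between groups and thick ones between the 3 tables. TBX4, PAX2, HAND1 and TCF21 are dark in every group, and SOX11 is bright in the 4 H2731 libraries and dark in the other human libraries.

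Per kilobase of exon, the most abundant of these genes differed between lines and between groups of 1 line. On this scale (mean CPM per kb, a level) GATA6 led in H2810 with DMSO at 26.1, followed by SOX9 at 19.5 and GATA4 at 17.7. With GSK126 SOX4 led in H2810 at 20.1, and with the random hairpin IRX3 led at 20.8, ahead of GATA6 at 18.4. GATA6 and GATA4 are zinc finger factors of heart and gut development, and SOX9 directs cartilage and Sertoli cell fate. In H2731 with DMSO, GATA2 led at 8.91, ahead of FOXF1 at 8.83 and SOX11 at 7.84. GATA2 is a blood and endothelial factor, and FOXF1 acts in lung and gut mesenchyme. GATA2 also led in MSTO-211H with the random hairpin, at 10.3, with its relative GATA3 next at 8.97. In the mouse Sox4, a SOX factor of many progenitor cells, led both groups, at 65.0 in BNC and 44.1 in NC libraries, with Osr1 second at 35.7 and 22.5. H2810 was sequenced in both human tables, and its controls (random hairpin in one, DMSO in the other) put 50 of the 54 genes on the same side of 0.5 CPM. PITX1, DLX5, EYA1 and PRRX1 fell on different sides. PRRX1, a limb mesenchyme factor, read 1.93 and 1.99 CPM with the random hairpin and 0.057 and 0.293 CPM with DMSO, a difference across tables that was not tested.

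Between H2731 and H2810 under DMSO most of these genes differed in level. Of 49 tested, 17 were higher in H2731 (34.7%), where 41.5% of all genes tested were called higher, and 26 were lower (53.1%), where 40.7% of all genes were called lower. Their median log2 fold change was -0.40, against 0.01 over all genes tested. Of the 116 other developmental transcription factors counted for comparison, 76 were tested, with 41 higher and 22 lower in H2731.

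SOX11, a relative of SOX4 that acts in neural and mesenchymal progenitors, read 69.0 and 72.2 CPM in H2731 with DMSO. It had no counts in either H2810 library with DMSO, so its level was at least 893-fold higher in H2731, taking 3 counts over the H2810 group as the floor. No SOX11 count was found in any of the H2810 or MSTO-211H libraries of the hairpin table. Mouse Sox11 was on in every library, at 38.2, 29.4 and 26.1 CPM in BNC and 25.0 and 11.7 CPM in NC libraries. The SOX genes SOX6 and SOX17 were likewise without counts in H2810 with DMSO. SOX6, of cartilage and muscle, read 2.52 and 2.48 CPM in H2731, at least 31.7-fold higher, and SOX17, of endoderm and vessels, read 0.695 and 0.607 CPM, at least 8.29-fold higher.

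PAX8, a thyroid and kidney factor, read 11.9 and 13.2 CPM in H2731 with DMSO against 0.171 and 0.0975 CPM in H2810 (log2 fold change 6.51 ± 0.26 SE, edgeR adjusted p = 7.61e-15). PITX1, which specifies hindlimb and pituitary, read 11.5 and 9.76 CPM in H2731 against 0.456 and 0.926 CPM in H2810 (3.90 ± 0.20). The next rises were of genes expressed in both lines. MEIS2, a HOX cofactor, read 49.6 and 51.1 CPM in H2731 against 15.3 and 16.6 CPM in H2810. DLX2, of forebrain and branchial arches, read 8.26 and 6.93 CPM against 2.62 and 2.93 CPM, and IRX2, an Iroquois factor, 26.2 and 25.9 CPM against 10.4 and 11.3 CPM, in H2731 and H2810 in that order. In each of these 5 genes, picked because they were called, both H2731 libraries stood above both H2810 libraries.

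Among the genes that were lower in H2731, HAND2, of heart and limb, read 0.782 and 0.860 CPM in H2731 against 22.7 and 23.6 CPM in H2810 (-4.82 ± 0.14, adjusted p = 2.33e-17). GATA6 read 10.3 and 11.5 CPM in H2731 against 99.0 and 98.7 CPM in H2810 (-3.18 ± 0.07), and SOX9 10.1 and 10.8 CPM against 75.9 and 77.5 CPM (-2.88 ± 0.06). In all of these, picked because they were called, the libraries of the 2 lines lay far apart. PAX9, of teeth, thymus and vertebrae, read 2.13 and 2.83 CPM in H2731 against 26.8 and 25.4 CPM in H2810, and SIX2, which maintains nephron progenitors, 2.22 and 1.87 CPM against 17.3 and 16.3 CPM. FOXL1, a gut mesenchyme factor, and LHX9, a gonad factor, were silent in H2731. FOXL1 read 0.434 and 0.303 CPM in H2731 against 5.88 and 9.02 CPM in H2810, and LHX9 0.0434 and 0.0506 CPM against 1.03 and 1.32 CPM. PRRX1 had no counts in H2731 and 0.057 and 0.293 CPM in H2810, at least 2.63-fold lower in H2731. BAP1 itself read 70.3 and 68.9 CPM in H2731 against 148 and 144 CPM in H2810.

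Most of these genes also differed between MSTO-211H and H2810 with the random hairpin. Of 46 tested, 14 were higher in MSTO-211H (30.4%, with 39% of all genes called higher) and 26 were lower (56.5%, with 40.7% of all genes called lower). The median log2 fold change was -0.90, against -0.03 over all genes tested, and 56 other developmental factors tested had 20 higher and 33 lower. These random-hairpin H2810 libraries are not those of the drug table.

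Genes on in MSTO-211H and silent in H2810 were PAX8, PITX1, SOX6 and TBX5. PAX8 read 17.2 and 21.1 CPM in MSTO-211H against 0.172 and 0.340 CPM in H2810 (6.22 ± 0.24, adjusted p = 4.84e-10), and PITX1 21.8 and 18.9 CPM against 0.514 and 0.340 CPM (5.54 ± 0.20). SOX6 read 3.54 and 3.23 CPM in MSTO-211H against 0.0429 and 0.0486 CPM in H2810. TBX5, of heart and forelimb, read 0.621 and 1.20 CPM in MSTO-211H and had no counts in H2810, at least 13.3-fold higher. PAX8, PITX1 and SOX6 thus stood above their H2810 level in both other lines, each set against its own H2810 libraries. GATA3, of T cells and epithelia, read 32.4 and 28.6 CPM in MSTO-211H against 2.57 and 2.38 CPM in H2810 (3.61 ± 0.15). GATA2 read 52.7 and 48.6 CPM in MSTO-211H against 18.2 and 19.4 CPM in H2810, FOXF2, of gut and palate mesenchyme, 21.1 and 20.0 CPM against 10.3 and 11.3 CPM, and FOXL2, an ovarian factor, 8.22 and 7.71 CPM against 3.77 and 4.32 CPM.

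Genes on in H2810 and silent in MSTO-211H were PAX6, MSX2, IRX1, LHX2, TBX20, PRRX1 and DLX5. PAX6, the eye factor, read 0.0956 and 0.0482 CPM in MSTO-211H against 13.2 and 13.4 CPM in H2810 (-7.41 ± 0.26, adjusted p = 1.81e-10). MSX2, of skull and tooth, the Iroquois factor IRX1, and DLX5, of bone, had no counts in MSTO-211H with the random hairpin. MSX2 read 3.94 and 3.89 CPM in H2810, IRX1 4.76 and 4.42 CPM, and DLX5 0.686 and 0.826 CPM. MSX2 was therefore at least 54.4-fold lower in MSTO-211H, IRX1 at least 63.9-fold lower and DLX5 at least 10.4-fold lower. LHX2, of forebrain and eye, read 0.430 and 0.482 CPM in MSTO-211H against 3.99 and 4.08 CPM in H2810. TBX20, a heart factor, read 0.239 and 0.193 CPM against 2.14 and 1.70 CPM, and PRRX1 0.0478 and 0.0963 CPM against 1.93 and 1.99 CPM, each with MSTO-211H before H2810.

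Several factors were on in both lines at very different levels. IRX3, an Iroquois homeobox factor of heart and limb, read 2.72 and 2.07 CPM in MSTO-211H against 59.6 and 62.1 CPM in H2810 (-4.66 ± 0.12). SOX9 read 4.78 and 6.12 CPM against 56.8 and 54.5 CPM (-3.35 ± 0.10), SIX2 1.86 and 1.45 CPM against 18.5 and 18.7 CPM, FOXL1 2.53 and 1.93 CPM against 15.3 and 16.9 CPM, and FOXC2, of lymphatic and body-wall mesoderm, 6.26 and 5.25 CPM against 33.4 and 38.4 CPM. SOX9, SIX2, IRX3, FOXL1 and FOXC2 were lower than in H2810 in H2731 too, where the test used other H2810 libraries.

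GSK126 in H2810 raised more of these genes than it lowered. Of 49 tested, 17 rose (34.7%), where 16.3% of all genes were called higher, and 9 fell (18.4%), where 12.9% of all genes were called lower. The median log2 fold change was 0.18 against 0 over all genes, and the median absolute change was 0.32 against 0.162. Of 76 other developmental factors tested, 14 rose and 5 fell. With DESeq2 in place of edgeR 15 of these genes were called, and 17 without the first DMSO library. Of the 26 called, 15 were called under every alternative tried. EZH2 itself read 38.6 and 39.3 CPM with GSK126 against 33.4 and 32.8 CPM with DMSO. The summed CPM of the mesothelial markers was 2630 to 2650 with GSK126 against 3510 to 3700 with DMSO, that of the endothelial markers 19.5 to 19.9 against 11.4 to 11.7, and that of the fibroblast markers 8690 to 8970 against 9520 to 10700. Most of the mesothelial sum was KRT8 (mean 1540 CPM with GSK126 against 2110 CPM with DMSO) and KRT18 (670 against 995 CPM). WT1 read 20.8 against 22.8 CPM, BNC1 17.4 against 17.7 CPM and PDPN 32.0 against 20.3 CPM. Among 11 mesothelial markers tested, 1 rose and 5 fell. Of 6 fibroblast markers tested 3 rose and 3 fell, and the part of these markers in the changes was not tested.

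The SOX factors SOX4 and SOX9 went opposite ways. SOX4 read 98.0 and 97.6 CPM with GSK126 against 45.3 and 50.2 CPM with DMSO (1.03 ± 0.05, adjusted p = 1.57e-11), and SOX9 48.8 and 50.9 CPM against 75.9 and 77.5 CPM (-0.62 ± 0.05, adjusted p = 1.16e-08). RUNX2, the master factor of bone, read 59.0 and 58.2 CPM with GSK126 against 34.1 and 35.3 CPM with DMSO (0.76 ± 0.06). TBX3, of limb and heart, read 53.5 and 52.1 CPM against 34.9 and 34.8 CPM (0.60 ± 0.06). For these 4 genes both GSK126 libraries lay on the same side of both DMSO libraries, by more than the spread within either group. They were picked because they were called, so this is no further support. The LIM factor LHX2 rose (7.21 and 6.95 CPM against 4.96 and 3.51 CPM), as did the homeobox genes DLX2 (4.31 and 5.42 CPM against 2.62 and 2.93 CPM) and MSX2 (10.1 and 9.02 CPM against 6.16 and 6.49 CPM), GSK126 before DMSO in each. PITX1, at a low level, read 1.82 and 1.72 CPM against 0.456 and 0.926 CPM (1.31 ± 0.32). PRRX1 crossed the 0.5 CPM line, with 0.623 and 0.558 CPM under GSK126 against 0.057 and 0.293 CPM under DMSO (1.65 ± 0.61, adjusted p = 0.0499), and that call was lost when any of 3 of the 4 libraries was left out, with no filter on low counts and with the replicate block. SOX6 was also called, on a total of 6 counts under GSK126 and 0 under DMSO, and stayed silent.

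Among the genes that fell, GATA6 read 70.1 and 77.0 CPM with GSK126 against 99.0 and 98.7 CPM with DMSO (-0.43 ± 0.05), and SIX2 12 and 12 CPM against 17.3 and 16.3 CPM (-0.48 ± 0.09). IRX3 read 31.4 and 28.5 CPM against 39.5 and 37.4 CPM, HAND2 18.4 and 17.7 CPM against 22.7 and 23.6 CPM, and TBX18, an epicardial factor, 65.1 and 67.0 CPM against 79.9 and 80.4 CPM. None of the falls reached 2-fold, and each of these genes stayed expressed. The other calls were rises of SOX6, EYA4, FOXF1, FOXF2, FOXL2, LHX6, MEIS2, DLX1 and OSR1, and falls of GATA4, PAX9 and FOXC2. TBX4, TBX5, TBX15, SOX11, SOX17, PAX2, PAX8, DLX5, HAND1 and TCF21, all silent under DMSO, were still silent under GSK126.

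GSK126 in H2731 moved fewer of them. Of 49 tested, 9 rose (18.4%, with 13.8% of all genes called higher) and 4 fell (8.16%, with 10.9% of all genes called lower), and the median log2 fold change was 0.14 against 0 over all genes. The share that fell was near that of all genes. Other developmental factors had 14 higher and 5 lower of 76 tested. DESeq2 called 8 of the 13, and 8 were called under every alternative tried. The summed CPM of the mesothelial markers was 6150 to 6250 with GSK126 against 7320 to 7950 with DMSO, and its part was not tested. Most of that sum was the keratins KRT7, KRT8, KRT18 and KRT19. Among 11 mesothelial markers tested, 1 rose and 5 fell.

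RUNX2 made the largest rise, with 38.8 and 36.5 CPM under GSK126 against 13.9 and 16.4 CPM under DMSO (1.32 ± 0.07, adjusted p = 1.1e-10). EYA4, a cofactor of homeobox factors such as SIX4, known for inner ear and heart, followed with 68.0 and 68.1 CPM under GSK126 against 35.8 and 35.1 CPM under DMSO (0.94 ± 0.05, adjusted p = 6.65e-11). SOX4 read 42.8 and 43.1 CPM against 30.8 and 33.2 CPM (0.43 ± 0.06). All 3 rose in both lines under the drug. GATA6 read 15.7 and 15.7 CPM under GSK126 against 10.3 and 11.5 CPM under DMSO, FOXC2 10.6 and 10.4 CPM against 6.56 and 7.94 CPM, and IRX3 13.4 and 12.1 CPM against 8.95 and 8.90 CPM. OSR1, of kidney and heart mesoderm, read 2.73 and 3.10 CPM against 1.87 and 1.92 CPM, and this call was lost under DESeq2 (adjusted p = 0.194), limma-voom and without any single library. The genes that fell were DLX1 (11.7 and 11.8 CPM against 17.1 and 18.1 CPM), SIX4, a muscle factor (14.3 and 14.8 CPM against 17.8 and 19.7 CPM), IRX2 (21.4 and 21.3 CPM against 26.2 and 25.9 CPM) and GATA2 (40.3 and 33.9 CPM against 43.8 and 43.8 CPM), GSK126 before DMSO in each. TBX3 and FOXC1 made up the remaining calls, both higher. The calls of GATA2, IRX2, TBX3 and FOXC1 were lost under DESeq2, and that of GATA2 without any of 3 single libraries. SOX17, SOX6 and SOX11, which had no counts in H2810 with DMSO, were not called in H2731, with SOX11 at 65.5 and 69.2 CPM under GSK126 against 69.0 and 72.2 CPM under DMSO. HAND2 passed below 0.5 CPM, with a mean of 0.454 CPM under GSK126 against 0.821 CPM under DMSO, and did not pass the test (adjusted p = 0.11).

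**Figure D2:**
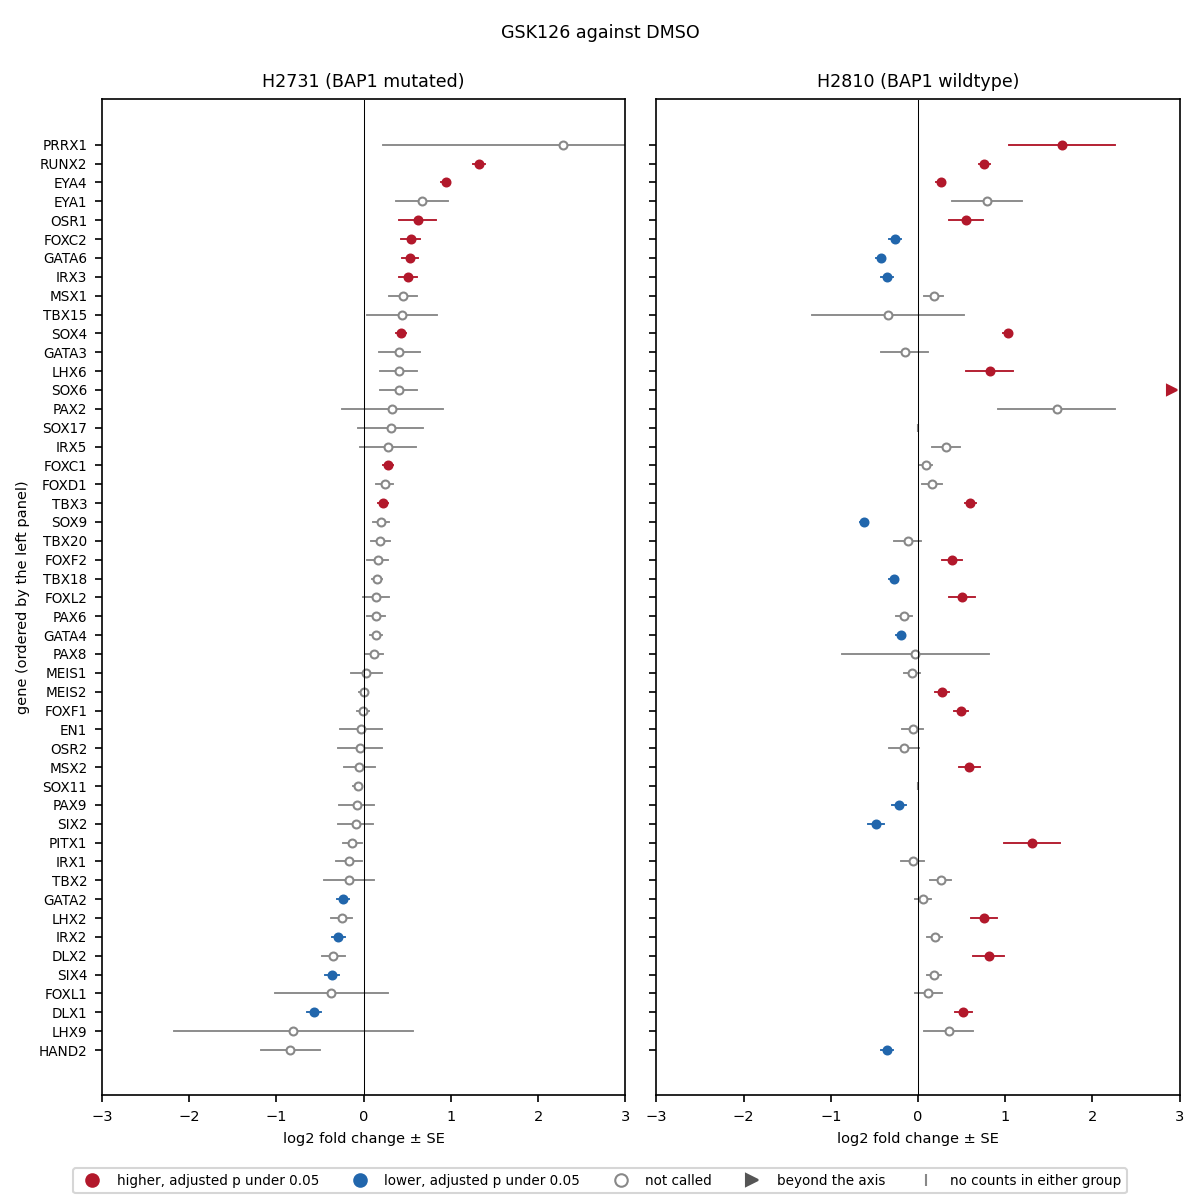
Log2 fold change of GSK126 over DMSO (x axis, ± SE from the edgeR fit) for each of the 49 genes tested (y axis) in H2731 (left) and H2810 (right), filled where called; arrowheads lie beyond the axis and small ticks mark genes with no counts. SOX4, RUNX2, EYA4, TBX3 and OSR1 are higher in both panels, and GATA6, FOXC2 and IRX3 are higher on the left and lower on the right.

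Promoter sequences are shown for SOX4, EYA4 and RUNX2, which among the genes called higher under GSK126 in both lines made the 2 largest rises in one line or the other, because density of CG dinucleotides is the sequence feature most often tied to Polycomb binding in mammals. The sequences are from RefSeq (GRCh38.p14), 250 bases before to 50 after the annotated start, on the plus strand of chromosome 6, with CG dinucleotides in capitals. SOX4 lies at chr6:21593501-21593800, EYA4 at chr6:133241107-133241406, and the RUNX2 starts at chr6:45328080-45328379 and chr6:45422025-45422324.
SOX4: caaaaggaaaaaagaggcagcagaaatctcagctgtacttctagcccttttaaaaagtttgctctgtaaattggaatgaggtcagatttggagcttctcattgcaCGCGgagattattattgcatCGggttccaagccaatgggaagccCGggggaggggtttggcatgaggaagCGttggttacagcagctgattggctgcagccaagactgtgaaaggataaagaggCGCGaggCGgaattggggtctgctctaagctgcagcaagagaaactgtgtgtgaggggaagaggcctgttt
EYA4: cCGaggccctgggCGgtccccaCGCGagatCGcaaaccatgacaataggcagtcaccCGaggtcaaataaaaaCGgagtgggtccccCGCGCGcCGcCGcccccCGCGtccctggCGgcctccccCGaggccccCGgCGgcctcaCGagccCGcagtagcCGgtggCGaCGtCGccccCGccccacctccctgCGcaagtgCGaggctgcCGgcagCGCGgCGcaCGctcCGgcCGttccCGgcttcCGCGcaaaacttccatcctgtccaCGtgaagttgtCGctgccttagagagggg
RUNX2 first start: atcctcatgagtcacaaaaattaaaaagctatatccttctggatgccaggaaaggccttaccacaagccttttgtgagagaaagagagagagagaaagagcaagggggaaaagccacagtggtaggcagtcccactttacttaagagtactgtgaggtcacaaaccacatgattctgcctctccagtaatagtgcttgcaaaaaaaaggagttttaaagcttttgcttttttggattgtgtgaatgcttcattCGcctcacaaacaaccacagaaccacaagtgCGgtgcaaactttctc
RUNX2 second start: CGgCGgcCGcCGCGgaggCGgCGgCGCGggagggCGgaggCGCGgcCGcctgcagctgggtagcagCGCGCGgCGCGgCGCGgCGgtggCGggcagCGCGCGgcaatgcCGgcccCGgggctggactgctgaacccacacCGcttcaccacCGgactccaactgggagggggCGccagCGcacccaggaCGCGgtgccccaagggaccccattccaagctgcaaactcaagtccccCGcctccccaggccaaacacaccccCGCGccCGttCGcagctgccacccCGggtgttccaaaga
The letters searched were CG, which read the same on both strands. The SOX4 window held 8 CG and 60.7% of the 35116 promoters in the table held at least as many. EYA4 held 39 (8.71% of promoters held at least as many), the second RUNX2 start 39 (8.71%) and the first RUNX2 start 2 (89%). So within these windows of 300 bases the 3 genes did not share a CG-dense stretch, and the 2 RUNX2 starts were at opposite ends of the range. Sequence beyond the windows was not searched, and Polycomb binding was not tested. At least 1 CG was held by 96% of all promoters, with a median of 14. The 37 of the 54 genes with a promoter in the table had 63 promoters, with a median of 19. The counts per gene used here do not separate the 2 RUNX2 starts. Each of the 3 genes also overlaps an annotated gene on the other strand (RUNX2 overlaps SUPT3H, EYA4 overlaps TARID), whose reads cannot be told apart where counting ignores strand.

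The difference of the GSK126 responses between the lines was tested as an interaction. Of 49 genes, 8 had a response more positive in H2731 than in H2810 (16.3%, with 8.08% of all genes called in that direction) and 9 a more negative one (18.4%, with 6.66% of all genes). Of 76 other developmental factors, 6 were called more positive and 4 more negative. GATA6 (difference 0.96 ± 0.10, adjusted p = 1.51e-06), IRX3 (0.87 ± 0.12) and FOXC2 (0.80 ± 0.13) rose in H2731 and fell in H2810. For FOXC2 the call of the fall in H2810 was lost under DESeq2 and without either of 2 single libraries. DLX1 fell in H2731 and rose in H2810 (-1.09 ± 0.13, adjusted p = 5.44e-06). GATA6, IRX3, FOXC2 and DLX1 were the genes called in opposite directions in the 2 lines. PITX1 (-1.44 ± 0.34), DLX2 (-1.16 ± 0.22) and LHX2 (-1.0 ± 0.19) rose in H2810 and were not called in H2731. SOX4 rose in both lines, with the smaller rise in H2731 (-0.60 ± 0.08), while RUNX2 (0.56 ± 0.10) and EYA4 (0.68 ± 0.07) rose in both with the larger rise in H2731. TBX3, SOX4, EYA4, OSR1 and RUNX2 rose in both lines, which is 55.6% of the 9 rises in H2731 and 29.4% of the 17 in H2810. Over all genes these shares were 41.7% and 35.3%. In H2810 34.7% of these genes rose, where 16.3% of all genes did, so the shares start from unlike rates. The OSR1 call was lost under DESeq2 and limma-voom in both lines. None of these genes fell in both lines, out of 4 falls in H2731 and 9 in H2810. Over all genes 33.6% and 28.4% of the falls were shared, and 4 falls are too few to set against that.

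BAP1 knockdown in H2810 changed these genes about as often as it changed all genes. Of 46 tested, 10 rose (21.7%, with 22.5% of all genes called higher) and 12 fell (26.1%, with 23.3% of all genes called lower). The median log2 fold change was -0.03, the same as over all genes, and the median absolute change was 0.39 against 0.291. Other developmental factors had 7 higher and 18 lower of 56 tested. Of the 22 calls 18 were made under every alternative that gave an adjusted p, FOXL2, OSR2, LHX2 and IRX5 being the exceptions. The summed CPM of fibroblast markers was 7620 to 8530 with shBAP1 against 10200 to 10800 with the random hairpin, and its part was not tested.

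IRX3 fell to 22.4 and 19.1 CPM with shBAP1, against 59.6 and 62.1 CPM with the random hairpin (-1.55 ± 0.09, adjusted p = 2.18e-07). SOX9 read 33.9 and 31.2 CPM against 56.8 and 54.5 CPM (-0.77 ± 0.08), and PAX9 33.2 and 32.0 CPM against 55.0 and 52.8 CPM (-0.72 ± 0.06). In all 3 genes, picked because they were called, both shBAP1 libraries were far below both controls. OSR1 read 2.68 and 2.51 CPM with shBAP1 against 5.06 and 4.71 CPM with the random hairpin, FOXL1 10.4 and 9.06 CPM against 15.3 and 16.9 CPM, and FOXD1, of kidney stroma, 4.70 and 5.41 CPM against 7.89 and 8.16 CPM. DLX5 became silent, at 0.132 and 0.148 CPM with shBAP1 against 0.686 and 0.826 CPM with the random hairpin (-2.39 ± 0.48, adjusted p = 0.00291). LHX2, LHX9, FOXC2, IRX5 and TBX18 also fell.

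PRRX1 rose most, with 4.35 and 4.13 CPM under shBAP1 against 1.93 and 1.99 CPM with the random hairpin (1.11 ± 0.18, adjusted p = 0.000396). FOXF1 read 16.7 and 17.4 CPM against 9.90 and 9.23 CPM (0.83 ± 0.09), SIX4 43.7 and 38.3 CPM against 28.9 and 23.8 CPM (0.64 ± 0.09), GATA2 25.5 and 28.3 CPM against 18.2 and 19.4 CPM (0.51 ± 0.08), and RUNX2 38.7 and 38.1 CPM against 28.4 and 25.5 CPM (0.51 ± 0.07). OSR2, a palate factor, read 4.18 and 4.38 CPM against 2.06 and 2.72 CPM, a call lost without the first random-hairpin library. In each of these genes, picked because they were called, both shBAP1 libraries were above both controls. The other rises were of SOX4, SIX2, FOXL2 and IRX2. LHX6, with a mean of 0.375 CPM with shBAP1 and 0.616 CPM with the random hairpin, moved below the 0.5 CPM line and did not pass the test (adjusted p = 0.173).

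In MSTO-211H the knockdown moved 14 of 46 tested genes up (30.4%, with 21.7% of all genes called higher) and 7 down (15.2%, with 24.5% of all genes called lower). The median log2 fold change was 0.00, against -0.02 over all genes, and other developmental factors had 11 higher and 17 lower of 56. Without the second random-hairpin library 12 of these genes were called, and without the first shBAP1 library 13. Of the 21 calls 11 were made under every alternative that gave an adjusted p. Mesothelial markers summed to 10700 to 11300 CPM with shBAP1 against 8880 to 9590 CPM with the random hairpin, and their part was not tested. Most of that sum was KRT8 (mean 5130 CPM with shBAP1 against 4150 CPM with the random hairpin) and KRT18 (5400 against 4760 CPM). Among 10 mesothelial markers tested, 7 rose and 1 fell.

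GATA2 reached 104 and 100 CPM with shBAP1, against 52.7 and 48.6 CPM with the random hairpin (1.01 ± 0.06, adjusted p = 3.3e-07). EYA4, at the highest CPM of these genes in this line, read 159 and 160 CPM against 111 and 111 CPM (0.52 ± 0.05, adjusted p = 5.52e-06), and its binding partner SIX4 40.9 and 42.2 CPM against 26.2 and 27.0 CPM (0.64 ± 0.09). SOX9 read 7.93 and 9.38 CPM against 4.78 and 6.12 CPM (0.67 ± 0.13), IRX3 4.61 and 3.79 CPM against 2.72 and 2.07 CPM (0.80 ± 0.19), and DLX2 2.84 and 2.69 CPM against 1.82 and 1.78 CPM. The libraries of the 2 hairpins did not overlap for these 6 genes, which were picked as the largest called rises. The IRX3 call was lost without the second random-hairpin library and the DLX2 call without any single library. FOXC2 read 2.93 and 2.16 CPM with shBAP1 against 6.26 and 5.25 CPM with the random hairpin (-1.18 ± 0.18), EN1, of hindbrain and limb, 2.98 and 2.51 CPM against 5.21 and 5.68 CPM (-0.99 ± 0.17), and PAX9 7.93 and 7.92 CPM against 13.1 and 13.8 CPM (-0.77 ± 0.08). LHX6, an interneuron factor, became silent, at 0.433 and 0.528 CPM against 1.58 and 1.73 CPM (-1.77 ± 0.29, adjusted p = 0.0005). TBX5 (0.433 and 0.220 CPM with shBAP1 against 0.621 and 1.20 CPM) and LHX9 (0.288 and 0.616 CPM against 1.29 and 0.819 CPM) also passed below 0.5 CPM. Both calls were lost without some single libraries, and that of LHX9 also under DESeq2. GATA3 fell slightly, and the remaining rises were of TBX3, TBX18, SOX4, FOXL2, MEIS2, DLX1, IRX2 and GATA6.

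**Figure D3:**
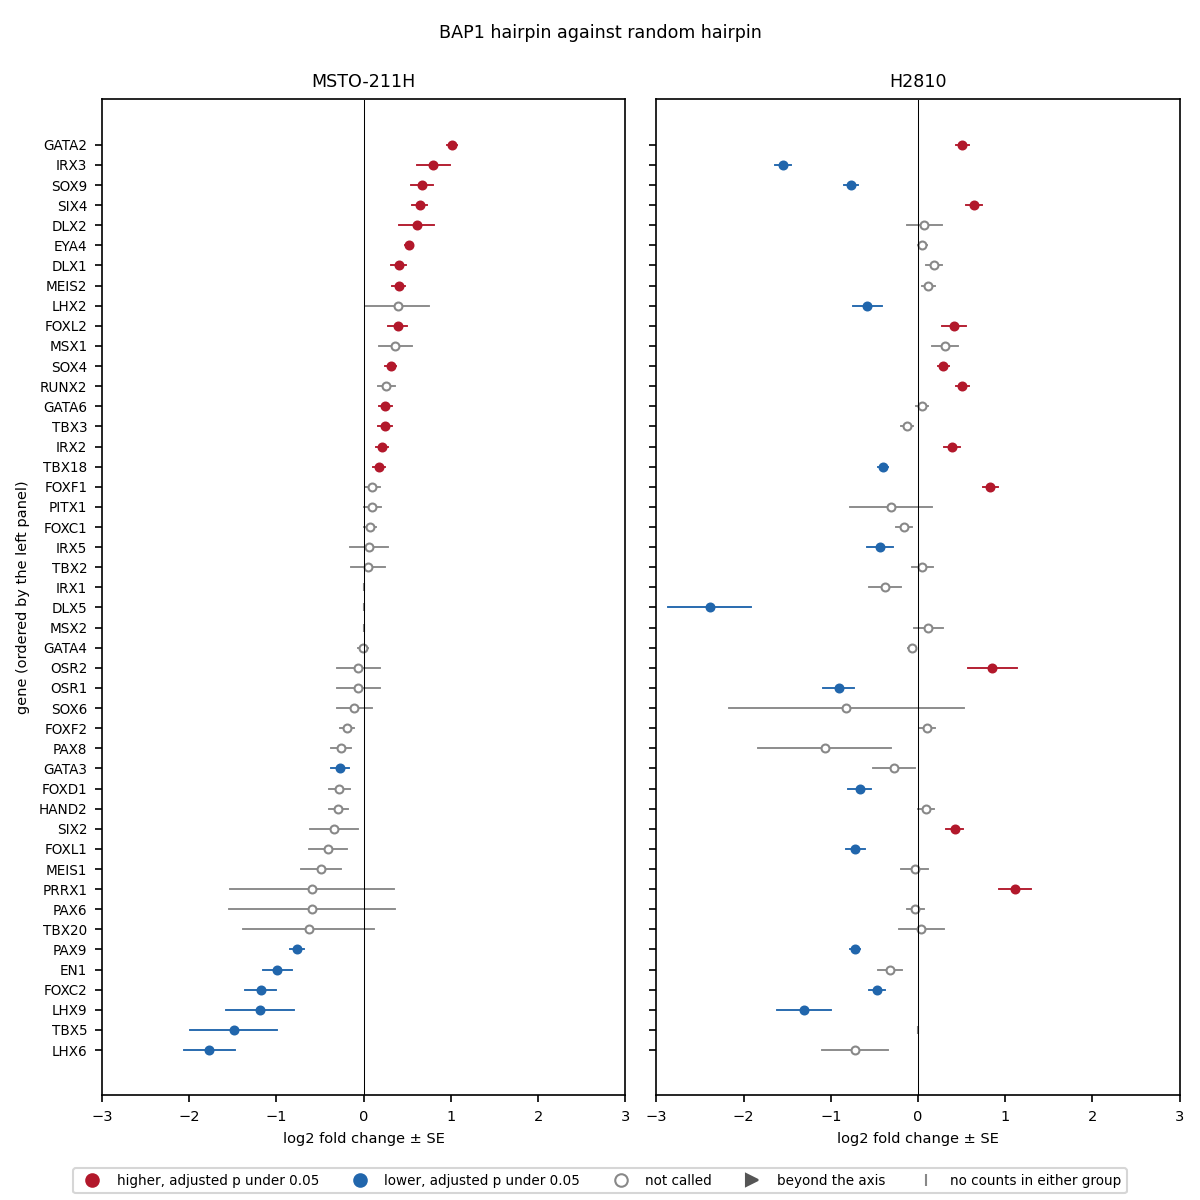
Log2 fold change of the BAP1 hairpin over the random hairpin (x axis, ± SE from the edgeR fit) for the 46 genes tested (y axis) in MSTO-211H (left) and H2810 (right), filled where called; small ticks mark genes with no counts. IRX3 and SOX9 lie right of 0 in MSTO-211H and left of 0 in H2810, and GATA2, SIX4 and SOX4 lie right of 0 in both.

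The 2 knockdown responses differed for 9 of 46 genes by the interaction test. In MSTO-211H 6 responses were more positive than in H2810 (13%, with 11.2% of all genes called) and 3 more negative (6.52%, with 16.5% of all genes called), which is near or below the rate of all genes. Other developmental factors had 6 more positive and 8 more negative of 56. IRX3 (2.35 ± 0.21, adjusted p = 1.37e-05), SOX9 (1.44 ± 0.16, adjusted p = 5.73e-05) and TBX18 (0.58 ± 0.09) rose in MSTO-211H and fell in H2810. The TBX18 rise in MSTO-211H was 0.18 ± 0.07 (edgeR adjusted p = 0.0416) and was lost with no filter and without any of 3 single libraries. GATA2 rose in both and more in MSTO-211H (0.49 ± 0.10), and EYA4 rose in MSTO-211H and was not called in H2810 (0.47 ± 0.07). FOXF1 rose in H2810 and was not called in MSTO-211H (-0.73 ± 0.13). GATA2, SOX4, SIX4, FOXL2 and IRX2 rose in both lines, which is 35.7% of the 14 rises in MSTO-211H and 50% of the 10 in H2810. Over all genes these shares were 50.7% and 48.7%. FOXL2 was lost under DESeq2 in both lines, and IRX2 in MSTO-211H. PAX9, FOXC2 and LHX9 fell in both, which is 42.9% of the 7 falls in MSTO-211H and 25% of the 12 in H2810. Over all genes 45.7% and 48% of the falls were shared. The LHX9 call in MSTO-211H was lost under DESeq2 and without either of 2 single libraries.

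In H2810 knockdown and drug were measured in separate libraries with separate controls, so their calls can be set side by side. SOX4, FOXF1, FOXL2, PRRX1 and RUNX2 rose under both, which is 50% of the 10 rises with shBAP1 and 29.4% of the 17 with GSK126, against 19.8% and 27.1% over all genes. TBX18, SOX9, PAX9, FOXC2 and IRX3 fell under both, which is 41.7% of the 12 falls with shBAP1 and 55.6% of the 9 with GSK126, against 14.3% and 25.5% over all genes. With GSK126 these genes were called more often than all genes to begin with (34.7% against 16.3% higher, 18.4% against 12.9% lower). So the shares do not separate agreement of hairpin and drug from that higher rate. Each share rests on 5 genes. FOXL2 was lost under DESeq2 in both comparisons, the PAX9 and FOXC2 calls with GSK126 were lost under DESeq2 and without some single libraries, and the PRRX1 call with GSK126 is the one at adjusted p = 0.0499. Opposite calls were made for LHX2 and OSR1, lower with shBAP1 and higher with GSK126, and for SIX2, higher with shBAP1 and lower with GSK126. SOX4 was called higher in all 4 human treatment comparisons, by 0.31 ± 0.06 (MSTO-211H shBAP1), 0.29 ± 0.06 (H2810 shBAP1), 0.43 ± 0.06 (H2731 GSK126) and 1.03 ± 0.05 (H2810 GSK126) on the log2 scale. The share of all genes called higher in all 4 was not computed. At the other end 15 of the 54 genes were called in none of these 4 comparisons, a count for which no share over all genes was computed. They were TBX4, HAND1 and TCF21, too low to test in any of them, and TBX2, TBX15, TBX20, SOX11, SOX17, PAX2, PAX6, PAX8, MEIS1, MSX1, EYA1 and IRX1. PAX6 was among them at 14.0 and 14.8 CPM with GSK126 against 15.1 and 17.0 CPM with DMSO in H2810 (-0.16 ± 0.09, adjusted p = 0.189), as was MEIS1, a HOX cofactor, at 8.09 and 11.3 CPM with shBAP1 against 9.48 and 10.3 CPM with the random hairpin in H2810 (-0.04 ± 0.15, adjusted p = 0.876).

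**Figure D4:**
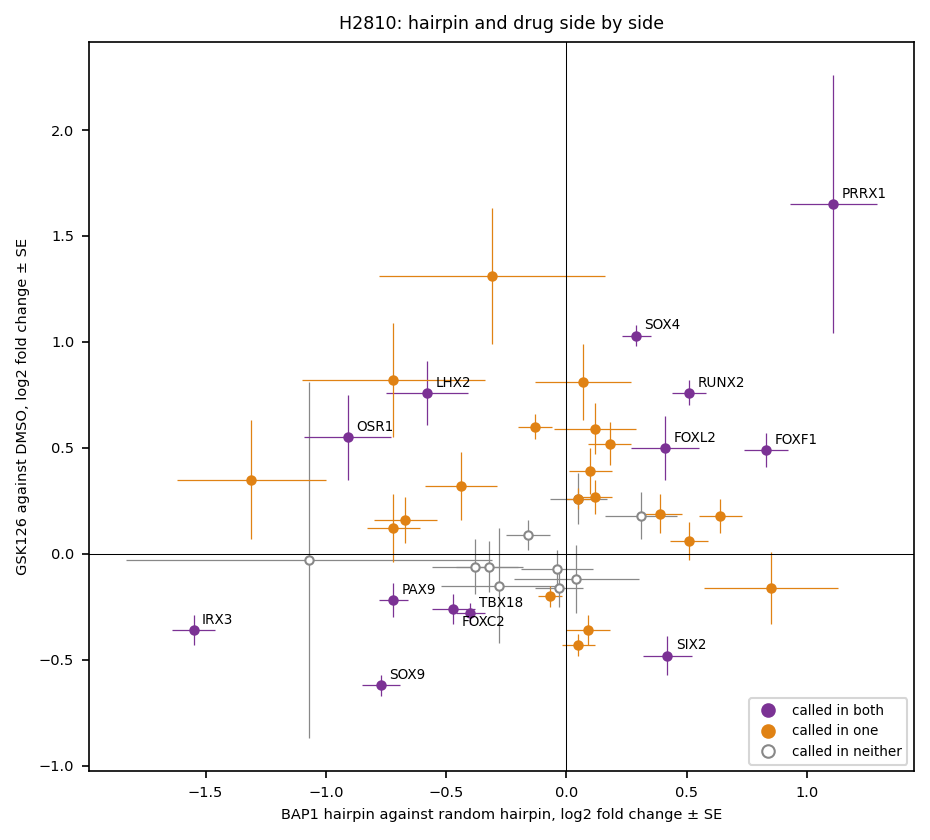
H2810: log2 fold change of the BAP1 hairpin over the random hairpin (x axis) against that of GSK126 over DMSO (y axis), ± SE, for 43 genes tested in both tables, with SOX6 not drawn because it rests on 6 counts under GSK126. The 13 named points are called in both comparisons, 5 of them higher in both and 5 lower in both.

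Some of the genes are neighbours, with gene starts within 1 Mb in the GENCODE annotation. DLX1 and DLX2, 18.2 kb apart on chromosome 2, were both called higher with GSK126 in H2810 (0.52 and 0.81). Both were also higher with shBAP1 in MSTO-211H (0.40 and 0.61), where the DLX2 call was lost under DESeq2 and without any single library. With GSK126 in H2731 DLX1 was lower (-0.57) and DLX2 was not called, and with shBAP1 in H2810 neither was called. FOXC2 and FOXF1, 56.3 kb apart on chromosome 16, were called in opposite directions in H2810, with FOXC2 lower and FOXF1 higher both with shBAP1 (-0.47 and 0.83) and with GSK126 (-0.26 and 0.49). The FOXC2 call with GSK126 was lost under DESeq2 and without either of 2 single libraries. FOXL1, 9.54 kb from FOXC2, fell with shBAP1 in H2810 together with FOXC2. IRX3 and IRX5, 644 kb apart on the same chromosome, both fell with shBAP1 in H2810 (-1.55 and -0.44). The IRX5 call was lost under DESeq2, with no filter and without any single library. Of this pair only IRX3 was called with GSK126 in H2810 (-0.36) and H2731 (0.51) and with shBAP1 in MSTO-211H (0.80). IRX1 and IRX2, 844 kb apart on chromosome 5, were called in opposite directions between MSTO-211H and H2810. FOXC1 and FOXF2, 220 kb apart on chromosome 6, were both higher in MSTO-211H than in H2810 (0.80 and 0.93). They went opposite ways between H2731 and H2810 (0.46 and -0.29), where the FOXF2 call was lost under DESeq2 and without either of 2 single libraries. The other neighbouring pairs were TBX2 and TBX4 (52.6 kb), TBX3 and TBX5 (276 kb), FOXF1 and FOXL1 (65.8 kb) and EYA4 and TCF21 (649 kb). TBX4 and TCF21 were too low to test, and TBX3 and TBX5 were called in opposite directions with shBAP1 in MSTO-211H (0.24 and -1.49). The TBX5 call was lost without any of 3 single libraries and the TBX3 call without either of 2. Of the 54 genes, 28 overlap an annotated gene on the other strand, among them GATA2, GATA3 and GATA6 with their antisense RNAs.

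In the mouse libraries no gene was called between BNC and NC cells. Of 35 orthologs tested 0 were higher, where 0% of all 12225 genes were, and 0 were lower, where 0% of all genes were. Unadjusted p was under 0.05 for 4 of the 35 and for 823 of all genes, and the smallest adjusted p over all genes was 0.465. With DESeq2 302 genes were called, of which 1 was among these orthologs. Libraries differed by more than group: BNC 4 and BNC 5 correlated at r = 0.997 over 12244 genes and BNC 4 and NC 4 at r = 0.957, while BNC 6 reached at most r = 0.876 with any other library. BNC 4 and BNC 5 still differed by more than counting noise, with a chi-square of 14.3 per degree of freedom, and were counted as separate libraries.

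The genes with the smallest p were Irx2, Runx2 and Gata2. Irx2 read 19.9, 20.0 and 21.9 CPM in BNC against 9.33 and 9.72 CPM in NC libraries (log2 fold change 1.11 ± 0.24, edgeR adjusted p = 0.526; DESeq2 adjusted p = 0.000145). Runx2 read 104, 98.5 and 95.2 CPM in BNC against 70.4 and 46.6 CPM in NC libraries (0.76 ± 0.23, adjusted p = 0.637). Gata2 read 4.93, 4.73 and 6.61 CPM in BNC against 9.55 and 15.5 CPM in NC libraries (-1.21 ± 0.38, adjusted p = 0.64). For these 3 genes the groups did not overlap. That held for 11 of 35 tested (31.4%), 6 higher and 5 lower in BNC, and for 23.9% of all genes tested. Irx3 was the fourth with unadjusted p under 0.05, at 5.93, 4.73 and 16.6 CPM in BNC against 0.579 and 2.01 CPM in NC libraries.

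Some orthologs differed more between libraries of 1 group than between the groups. Tbx18 read 0.0498, 0.149 and 19.0 CPM in BNC 4, 5 and 6 against 0 and 48.2 CPM in NC 4 and 5, and Tbx20 0.0997, 0.149 and 88.4 CPM against 0.434 and 24.2 CPM. Six2 read 62.3 CPM in BNC 6 and had no counts in the other 4 libraries. In the other direction, En1 read 27.0, 23.9 and 0.0876 CPM in BNC against 19.5 and 2.06 CPM in NC, and Prrx1 196, 175 and 8.89 CPM against 155 and 44.7 CPM. These genes were picked for that spread, and En1, Prrx1, Tbx18 and Tbx20 changed direction between the groups when a library was left out or another fit was used. Over all genes BNC 6 correlated with NC 5 (r = 0.871) no better than with BNC 4 (0.873) or BNC 5 (0.876). Fibroblast markers summed to 1690, 1990 and 12300 CPM in BNC 4, 5 and 6 against 5160 and 7540 CPM in NC 4 and 5, and mesothelial markers to 913, 983 and 149 CPM against 1000 and 2680 CPM, and their part in these values was not tested. Without BNC 6 the count of called orthologs was still 0.

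**Figure D5:**
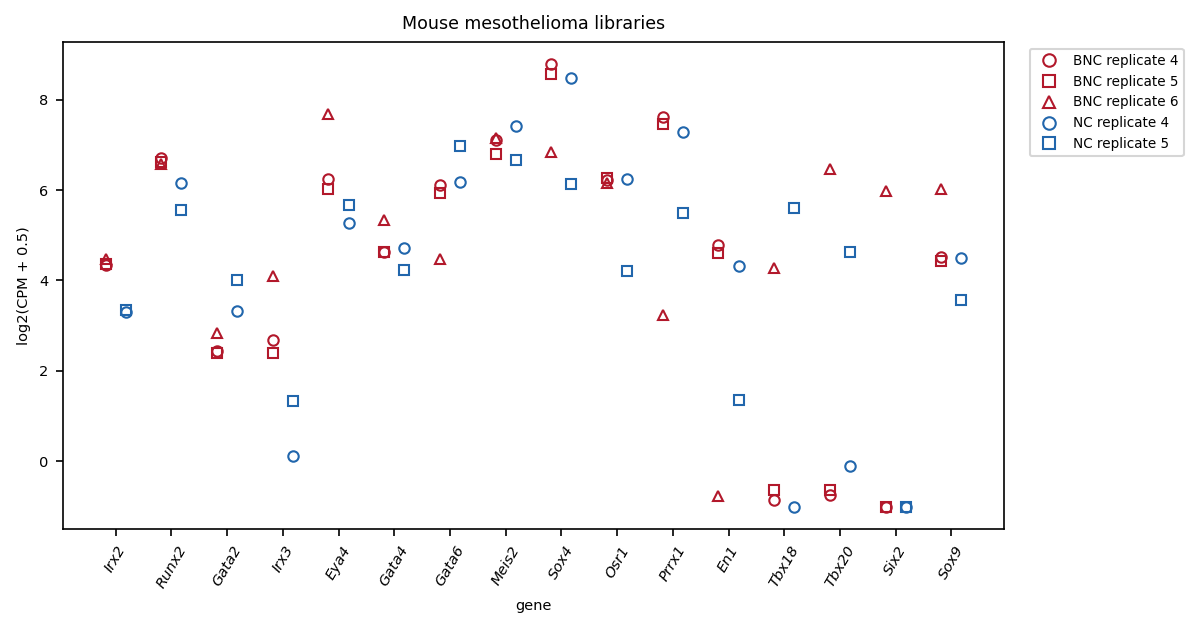
Level of 16 orthologs in each mouse library as log2(CPM + 0.5) (y axis), BNC libraries left and NC libraries right of each gene's tick, with the marker shape giving the replicate number. Irx2 separates the groups, while Tbx18, Tbx20 and Six2 run from near 0 CPM in BNC 4 and 5 to 19.0, 88.4 and 62.3 CPM in BNC 6.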

How the data were processed

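The deposited files hold whole-number gene counts made by the authors, in 1 mouse and 2 human tables. Per the submitters' processing notes, TopHat2 2.0.12, HTSeq and DESeq2 were used and mm10 (GRCm38) was named. The human build and the strand setting are not given in the sources used here. Per the labels' protocols, libraries were poly-A TruSeq libraries read as 65-base single ends. Counts were filtered with filterByExpr, scaled by TMM and tested with edgeR 4.0.16 (quasi-likelihood) with all groups of a table in 1 fit, adjusted by Benjamini-Hochberg over 12225 (mouse), 15999 (drug) and 15872 (hairpin) genes, and called at adjusted p under 0.05. Levels are TMM-scaled CPM, and per kilobase they use GENCODE exon lengths. Floors are 3 counts over a group and cover counting error only. SE is the log2 fold change over the square root of F.

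Library values are given for up to 6 rises and 6 falls a comparison (mean log2 CPM at least 1) and for called genes crossing 0.5 CPM. In the human comparisons these genes were picked because they were called, so groups whose libraries lie apart in them are no further support. PITX1, SOX4 in H2731, SOX6, SOX11, PAX6, MEIS1, HAND2 in H2731, LHX6 in H2810 and the mouse genes that vary within groups were named after their values were seen. The genes and lists were chosen with earlier results of these data known. Replicate numbers were not taken to pair libraries (residual correlations -0.27 to 0.31 in the mouse, -0.101 to 0.128 in the human tables). The alternatives tried were DESeq2 1.42.0, limma-voom (limma 3.58.1), scaling by RLE, dropping the filter or raising it to 50 counts in 2 libraries, fitting only the groups compared, adding a replicate block, and leaving out each library in turn.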

Additional observations from a re-analysis of the deposited data

Results flagged for a closer look

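These genes responded differently in the 2 lines by the interaction test of the edgeR fit (adjusted p under 0.05). Values are differences of log2 fold changes, with no explanation weighed.

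For GSK126, H2731 minus H2810, the more positive responses in H2731 were of GATA6 (0.96), IRX3 (0.87), SOX9 (0.82), FOXC2 (0.80), EYA4 (0.68), RUNX2 (0.56), TBX18 (0.43) and GATA4 (0.34). The more negative ones were of PITX1 (-1.44), DLX2 (-1.16), DLX1 (-1.09), LHX2 (-1.0), SOX4 (-0.60), SIX4 (-0.54), FOXF1 (-0.50), IRX2 (-0.48) and TBX3 (-0.38). Of these 17 genes 15 were called under every alternative tried, IRX2 and GATA4 being the exceptions.

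For shBAP1, MSTO-211H minus H2810, the more positive responses in MSTO-211H were of IRX3 (2.35), SOX9 (1.44), TBX18 (0.58), GATA2 (0.49), EYA4 (0.47) and TBX3 (0.37). The more negative ones were of FOXF1 (-0.73), FOXC2 (-0.71) and EN1 (-0.67). Of these 9 genes 6 were called under every alternative tried, and EN1, TBX3 and FOXC2 were not.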

How the results depend on the processing

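The number of genes called stayed within 1.5 times under most settings. DESeq2 called 1 of these orthologs in the mouse in place of 0, 15 in H2810 with GSK126 in place of 26 and 8 in H2731 with GSK126 in place of 13; over all genes it called 302, 2783 and 2123, against 0, 4681 and 3959, and 1401 against 2358 for the difference of GSK126 responses. DESeq2 gave no adjusted p for Tbx18 and Tbx20 (mouse), PRRX1 (H2810 GSK126), DLX5 (H2810 shBAP1) and TBX5 (MSTO-211H shBAP1). Leaving out 1 library at a time gave 17 to 24 calls for H2810 GSK126 and 12 to 20 for MSTO-211H shBAP1. Over all genes H2731 GSK126 had 2619 calls without the first DMSO library and 2338 without the second GSK126 library. With a replicate block the counts were 0 (mouse, with 1 call over all genes), 25 and 15 (GSK126 in H2810 and H2731), 43 (H2731 over H2810), 18 (difference of GSK126 responses), 22 and 21 (shBAP1 in H2810 and MSTO-211H), 40 (MSTO-211H over H2810) and 9 (difference of shBAP1 responses). No called gene turned direction under any alternative run. Among named genes that were not called, limma-voom turned Prrx1 to -0.30, En1 to -0.57 and Tbx20 to -1.59, and the replicate block turned Tbx20 to -6.06. With 1 library left out at a time Prrx1 ranged from -0.29 to 1.5, En1 from -0.20 to 3.04 and Tbx18 from -2.91 to 9.94, each turning without NC 5. Tbx20 and Tbx18 could not be tested without BNC 6. MEIS1 in H2810 with shBAP1 was 0.01 with no filter and ranged from -0.28 to 0.20 with 1 library left out. RLE scaling moved the median of all genes by at most 0.02. The cause of these shifts was not tested. Genes under about 1 CPM rest on few counts, and groups of 2 libraries give few degrees of freedom.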
